A study of Mus musculus with 18 samples.

Results

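The genes of the MHC class II presentation pathway were measured by RNA sequencing in the spleen of mice treated with streptozotocin (STZ), alginate oligosaccharide (AOS) or a fecal microbiota transplant (FMT). The 10 genes H2-Aa, H2-Ab1, H2-Eb1, H2-DMa, H2-DMb1, H2-DMb2, H2-Oa, H2-Ob, Cd74 and Ciita were taken by symbol from the 19326 gene lines of the deposited table. All 10 were found, and all 10 were among the 12905 genes that reached 1 RPKM in at least 3 libraries and were tested. RPKM is a read density, corrected for gene length and for the size of the library, so levels can be compared between genes of different length. Spleens of male ICR mice aged 10 weeks gave 18 libraries of poly(A) RNA, 3 in each of 6 groups. Con mice received a regular diet and saline. A10 mice received AOS, an oligosaccharide cut from the alginate of brown seaweed, with 10 mg/kg given in the labels and the route not given in the sources used here. STZ mice were injected once with STZ, a toxin of pancreatic beta cells that is used to model type 1 diabetes. STZ-A10 mice received both agents. A10-FMT and Con-FMT mice were injected with STZ and then received oral microbiota pooled from donors given AOS at 10 mg/kg or from control donors. The donor material was a pool, so a transplant group does not sample separate donors. ICR is an outbred stock, and the H2 haplotype of each animal is not given in the sources used here. The labels number the libraries without naming animals, so the p-values measure the spread between these libraries.

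MHC class II molecules are pairs of an alpha and a beta chain that carry peptides from the endosome to the surface of B cells, dendritic cells and macrophages, where CD4 T cells read them. The invariant chain, made by Cd74, blocks the groove until the endosome, H2-DM exchanges its remnant for peptide, and H2-DO restrains H2-DM, mainly in B cells. Ciita, the class II transactivator, joins the RFX, CREB and NF-Y factors on a shared promoter module and turns class II genes on. In the spleen, B cells are the most numerous cells that carry class II.

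The 18 libraries differed in cell content. The globin genes held 10.4% to 42.7% of all RPKM in a library. The mean log2(RPKM + 1) of 12 B cell genes, which serves below as the B cell reference (among them Cd79a, Cd79b, Ms4a1 and Pax5), lay between 6.45 and 7.29 in 17 libraries and at 5.23 in A10-FMT replicate 3. That library also had the lowest mean of 10 T cell genes (2.98, against 4.13 to 5.28 in the others) and the highest globin share. A list of 8 exocrine pancreas genes ran from 0.801 to 10.8 on the same scale, and means of 4.30 in Con and 7.54 in STZ. Other lists also differed between these groups. The neutrophil genes had means of 7.81 in Con and 5.57 in STZ, the liver genes 3.15 and 0.587, and the testis genes 3.08 and 0.759, with Con replicate 2 at 5.16. The part of these lists in the results was not tested. In bulk RNA, fewer cells of a type and less RNA per cell cannot be told apart.

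The promoters that a RefSeq table held for 7 of the 10 genes (GRCm38.p6, 250 bases before to 50 bases after the start) were searched first for letters of the shared module. H2-Ab1, Cd74 and Ciita had no entry. The letters AACNNATG, a core of the X box, and ATTGG, the inverted CCAAT of the Y box, were searched on both strands. Lines give the stretch around the match on the strand of the gene, with the matched letters in capitals.
H2-Eb1, chr17:34305772-34305818, plus strand: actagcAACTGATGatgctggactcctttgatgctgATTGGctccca
H2-Ob, chr17:34238814-34238858, plus strand: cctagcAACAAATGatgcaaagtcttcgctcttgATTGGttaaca
H2-DMb1, chr17:34153093-34153140, plus strand: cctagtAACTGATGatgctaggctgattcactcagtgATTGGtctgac
H2-DMb2, chr17:34145122-34145169, plus strand: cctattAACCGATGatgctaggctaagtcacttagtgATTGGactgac
H2-Aa, chr17:34287861-34287906, minus strand: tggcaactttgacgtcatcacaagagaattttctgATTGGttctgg
H2-Oa, chr17:34092301-34092346, plus strand: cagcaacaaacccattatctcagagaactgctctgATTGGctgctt
H2-Eb1, H2-Ob, H2-DMb1 and H2-DMb2 held both motifs in this order, with 20 to 23 bases between them. The 2 motifs, 10 to 30 bases apart and on the gene strand, occurred in 0.103% of 32851 promoters of the same length, or in 0.174% on either strand. AACNNATG alone occurred in 8.86% and ATTGG alone in 37.4%. H2-Aa and H2-Oa held ATTGG without AACNNATG. H2-DMa had a pair of listed windows. The first held neither motif, and the second held ATTGG at 198 bases before its start without AACNNATG. A related gene that is no member, H2-Eb2, held the pair too, with 22 bases between the motifs, and the first window of Cd79a held neither. A match of letters is a description of the sequence and not a measured binding site.

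Of the 10 genes, 8 lay together on chromosome 17 within 224.335 kb (GRCm38, GENCODE M21, 34092340 to 34316674). Ciita lay on chromosome 16 (10480059 to 10528418). Their transcripts covered a wide range of levels, with Cd74 at the top and Ciita at the bottom. Over the 18 libraries, the mean level was 3841 RPKM for Cd74, 2065 for H2-Aa, 1188 for H2-Ab1, 234 for H2-Eb1, 215 for H2-DMb2, 140 for H2-DMb1, 107 for H2-Ob, 82.7 for H2-DMa, 80.0 for H2-Oa and 32.2 for Ciita. Cd74 ranked as number 8 of all gene lines and Ciita as number 2744. The order Cd74, H2-Aa, H2-Ab1 held in each of the 18 libraries, with H2-Aa at 1.60 to 2.06 times H2-Ab1 and Cd74 at 3.03 to 3.58 times H2-Ab1. H2-DMb1 was likewise below H2-DMb2 in every library (ratio of 0.517 to 0.831). H2-DMb1 was above H2-Ob, and H2-Oa above Ciita, in all 18 libraries too. Other neighbours crossed, with H2-Eb1 above H2-DMb2 in some libraries and below it in others. The ratio of H2-Oa to H2-DMa ran from 0.813 to 1.14, and that of H2-Oa to H2-Ob from 0.532 in Con replicate 3 to 1.12 in STZ replicate 1.

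**Figure D1:**
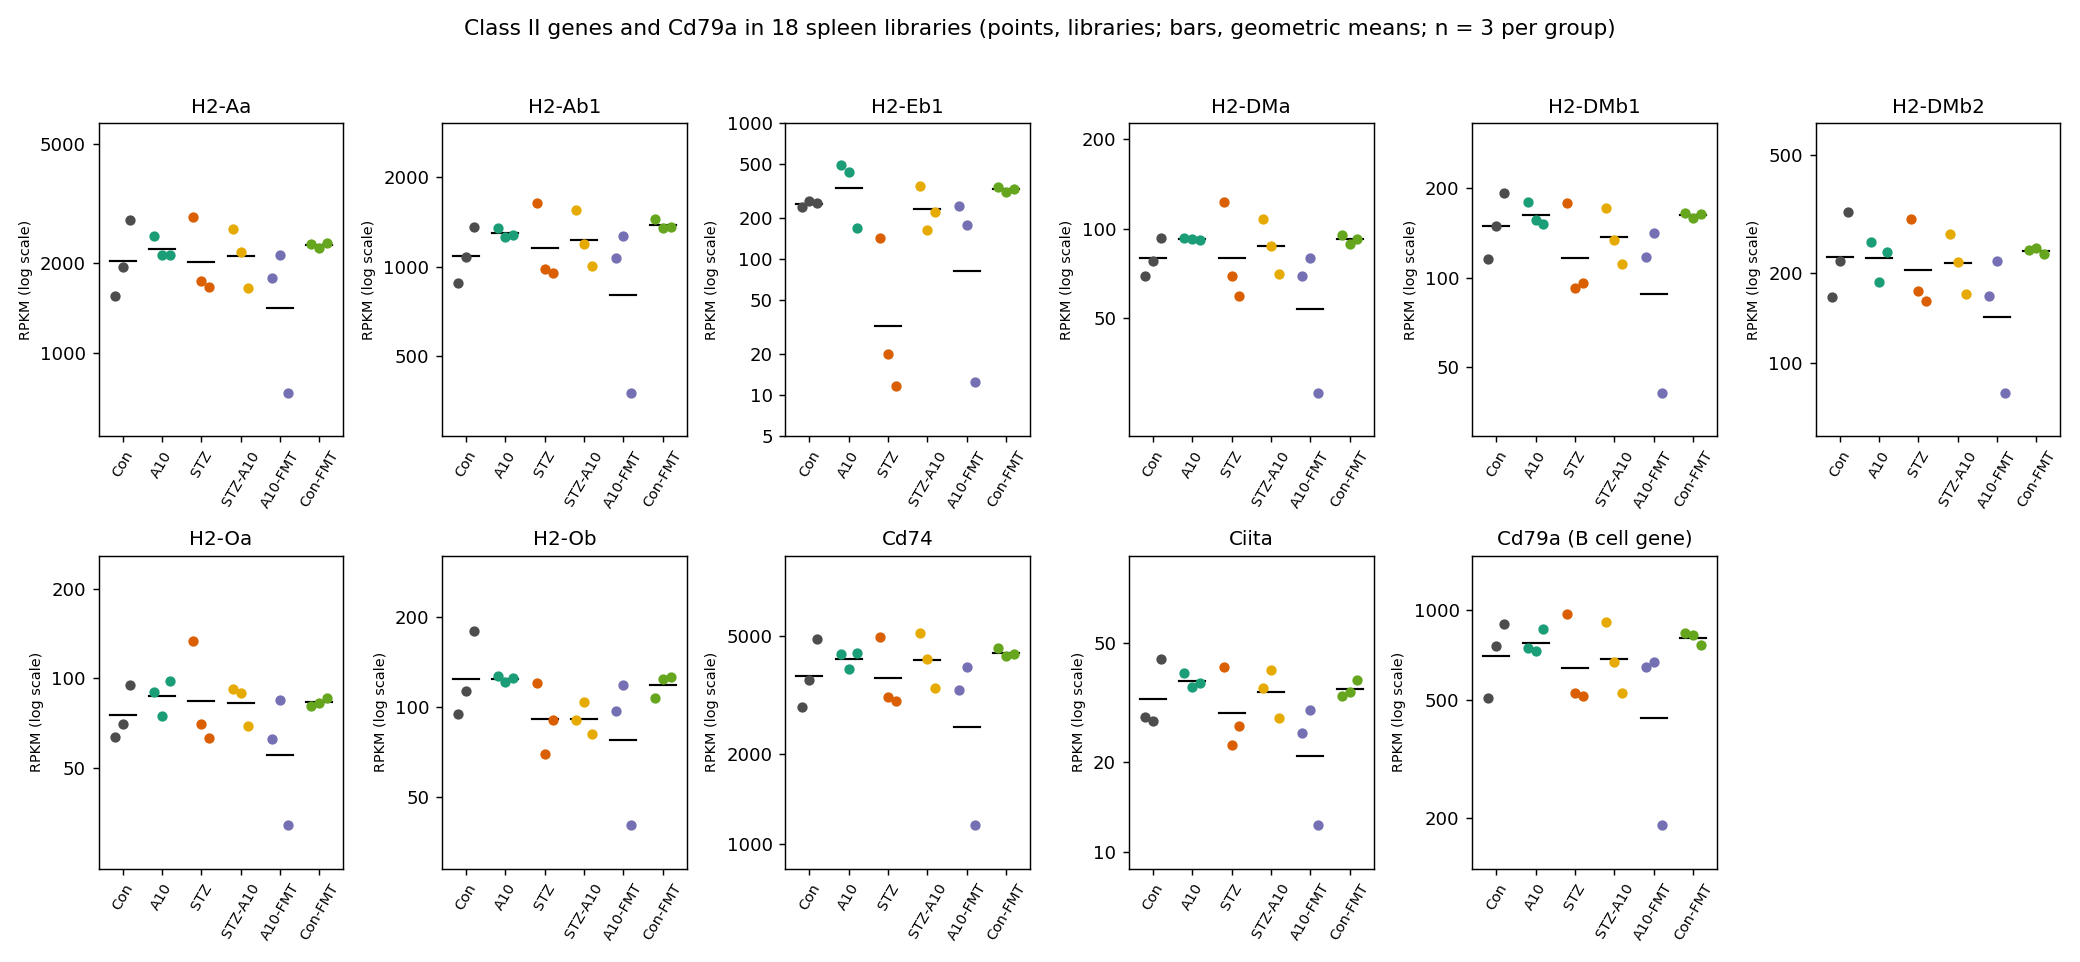
RPKM of the 10 class II genes and of the B cell gene Cd79a (log axes, 1 panel per gene) in the 3 libraries of each group, with bars for geometric means. In 9 of the 10 genes the lowest point is A10-FMT replicate 3, and H2-Eb1 has low points at 11.7, 12.46 and 20.25 RPKM.

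Across libraries, 9 of the 10 genes kept close to the B cell genes. The correlation of log2 values with the B cell reference over the 18 libraries was r = 0.902 to 0.983 for the 9 genes other than H2-Eb1 (Spearman's rho 0.740 to 0.915, permutation test, largest adjusted p over the 50 relations tested 9.09e-05 for r and 0.00327 for rho). It was 0.690 to 0.941 without the 2 libraries farthest from the median of the reference and 0.922 to 0.994 within groups. The same 9 genes correlated with a mean of 11 dendritic cell genes at 0.748 to 0.880 (rho 0.544 to 0.682, adjusted p at most 0.00772 for r and 0.0337 for rho). Without the 2 farthest libraries that range fell to between 0.258 and 0.640, so the relation rested in part on those libraries. With 10 T cell genes r was 0.793 to 0.939 (rho 0.612 to 0.825, adjusted p at most 0.00178 for r and 0.0156 for rho, trimmed r 0.498 to 0.819, within groups 0.816 to 0.943). With 11 macrophage genes r was 0.0348 to 0.447, and 0 of the 9 relations passed (rho -0.0774 to 0.383, smallest adjusted p 0.0894 for r and 0.152 for rho). With erythroid genes it was -0.544 to -0.156 (rho -0.612 to -0.193), and 3 of 9 passed (adjusted p 0.0258 to 0.569 for r, 0.0160 to 0.468 for rho, trimmed r -0.523 to -0.262). All these genes share the library and its globin content, and the share of all tested genes with such relations was not computed. For H2-Eb1, r with the B cell reference was 0.736 (rho 0.505, permutation test, adjusted p = 0.00190 for r and 0.0520 for rho), 0.471 without the 2 farthest libraries and 0.835 within groups. Its 3 low libraries form a cluster of their own, so this r is not that of an even spread of libraries.

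The spread within groups shows the same. On the log2(RPKM + 1) scale, the SD within groups was 0.372 to 0.487 for the 9 genes, above 87.6% to 95.3% of all tested genes, whose median was 0.204. Once the B cell reference of the same library was subtracted, it was 0.0504 for Cd74, 0.0584 for H2-Ab1, 0.0767 for H2-DMb1, 0.0964 for H2-Aa, 0.113 for H2-DMa, 0.129 for H2-DMb2, 0.151 for H2-Oa, 0.169 for H2-Ob and 0.187 for Ciita, against a median of 0.420 over all genes. No tested gene had a smaller value than Cd74. The B cell genes themselves had 0.0690 (Cd79b) to 0.133 (Pax5), and these enter the reference. H2-Eb1 kept an SD of 0.926 within groups, above 98.3% of all genes.

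**Figure D2:**
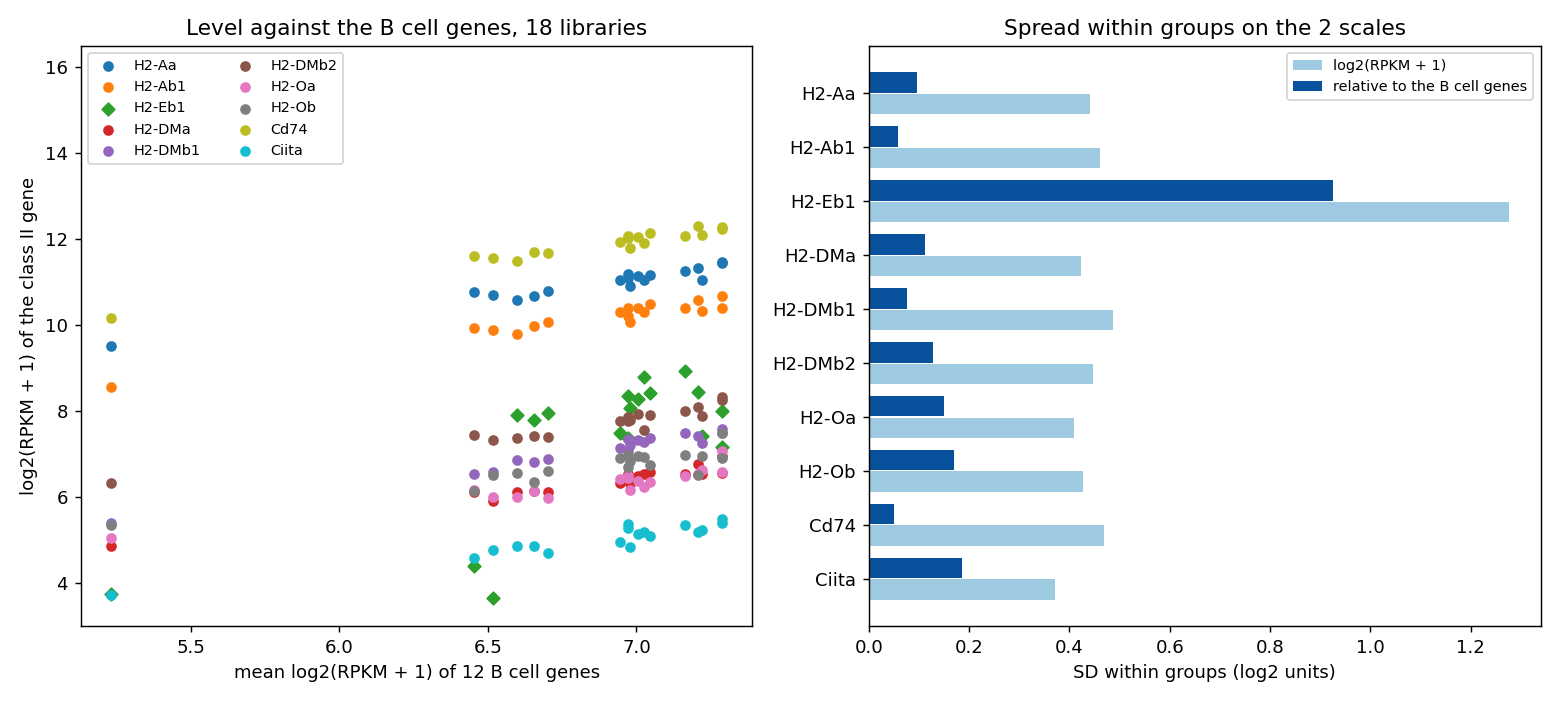
Left, log2(RPKM + 1) of each class II gene against the mean of the 12 B cell genes in the same library (18 libraries, 1 colour per gene, diamonds for H2-Eb1). Right, the SD within groups of each gene in log2 units before (light) and after (dark) subtracting the B cell mean; it drops to 0.187 or less in 9 genes and stays at 0.926 in H2-Eb1.

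H2-Aa and H2-Ab1, the alpha and beta chains of the I-A molecule, moved together. H2-Ab1 was 882.44, 1078.83 and 1356.58 RPKM in the Con libraries, 1344.56, 1260.11 and 1280.1 in A10, 1635.56, 984.13 and 951.6 in STZ, 1547.18, 1190.23 and 1008.13 in STZ-A10, 1073.81, 1265.64 and 378.29 in A10-FMT, and 1443.9, 1348.92 and 1359.22 in Con-FMT. Among the STZ libraries, replicate 1 thus lay above the Con libraries and the other two within their range, and the A10 and Con-FMT values were the tightest. The log2 fold change of H2-Ab1 in STZ against Con was 0.08 (SE 0.342, limma adjusted p = 0.970). H2-Aa averaged 2090 ± 636 RPKM (SD, n = 3) in Con, 2236 ± 199.9 in A10, 2084 ± 667 in STZ, 2142 ± 474 in STZ-A10, 1547 ± 725 in A10-FMT and 2295 ± 39.9 in Con-FMT, and its log2 fold change in STZ against Con was -0.01 (SE 0.330, adjusted p = 0.999).

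H2-Eb1, the beta chain of the I-E molecule, was low in STZ and fell into a low and a high range of RPKM across libraries. It was 241.55, 269.3 and 257.83 RPKM in Con, 490.14, 441.74 and 170.22 in A10, 143.83, 20.25 and 11.7 in STZ, 347.45, 164.73 and 222.8 in STZ-A10, 247.96, 180.3 and 12.46 in A10-FMT, and 342.22, 311.99 and 327.67 in Con-FMT. The 3 lowest libraries, STZ replicates 3 and 2 and A10-FMT replicate 3, were separated from the next, STZ replicate 1, by a factor of 7.10, and the steps between neighbours above that were 1.27-fold or less. A10-FMT replicate 3 was also lowest in the B cell reference. Relative to H2-Ab1, the gap was narrower. The ratio was 0.0123 in STZ replicate 3, 0.0206 in STZ replicate 2 and 0.0329 in A10-FMT replicate 3. The next were 0.0879 in STZ replicate 1 and 0.133 in A10 replicate 3. All 3 STZ libraries were below all Con, STZ-A10 and Con-FMT libraries. The log2 fold change was -2.92 in STZ against Con (SE 0.923, adjusted p = 0.188), 3.27 in Con-FMT against STZ (SE 0.923, adjusted p = 0.798) and 2.79 in STZ-A10 against STZ (SE 0.923, adjusted p = 0.996). These comparisons share the 3 STZ libraries, and none passed the threshold. Without STZ replicate 1 the STZ change against Con was -3.97, and without STZ replicate 3 it was -2.21. Without A10-FMT replicate 3, which is in neither group, STZ against Con passed (adjusted p = 0.0409). The share of all genes that passed in that refit is not reported here, so this is a description only. The interaction of STZ and AOS was 2.41 (SE 1.31) and did not pass.

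The other class II chain genes in the table help to place these values. H2-Ea-ps, the E alpha gene that pairs with H2-Eb1, is annotated as a polymorphic pseudogene (chromosome 17, 34341959 to 34344645, minus strand), since some laboratory strains carry an inactive copy. It was 301.83, 179.02 and 28.51 RPKM in Con, 240.28, 563.59 and 214.27 in A10, 213.63, 35.82 and 31.54 in STZ, 279.67, 228.79 and 322.83 in STZ-A10, 399.02, 279.0 and 21.67 in A10-FMT, and 323.76, 300.04 and 504.59 in Con-FMT. The 3 libraries low in H2-Eb1 were also low in H2-Ea-ps. The remaining low library, Con replicate 3, had 257.83 RPKM of H2-Eb1. H2-Ab1 was 951.6 RPKM in STZ replicate 3, 378.29 in A10-FMT replicate 3 and 984.13 in STZ replicate 2, and the ratio of H2-Eb1 to H2-Ab1 spanned 0.0123 to 0.365. That is a 29.6-fold range, against 21.3-fold for H2-Ea-ps, 1.29-fold for H2-Aa and 1.18-fold for Cd74 to H2-Ab1. H2-Ea-ps was -0.88 in STZ against Con (SE 0.994, adjusted p = 0.832). H2-Eb2, a nearby beta chain gene, was lower throughout (4.09 to 16.31 RPKM) and showed no such gap. Relative to B cells, the SD within groups was 0.268 for H2-Eb2. For H2-Ea-ps it was 1.19, above 99.4% of all genes, so the wide spread of H2-Eb1 was shared by H2-Ea-ps. The transcript of H2-Eb1 in GENCODE shared 0 of its 1620 windows of 50 bases with another gene. Sequence differences between the alleles of these animals and the reference were not tested.

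**Figure D3:**
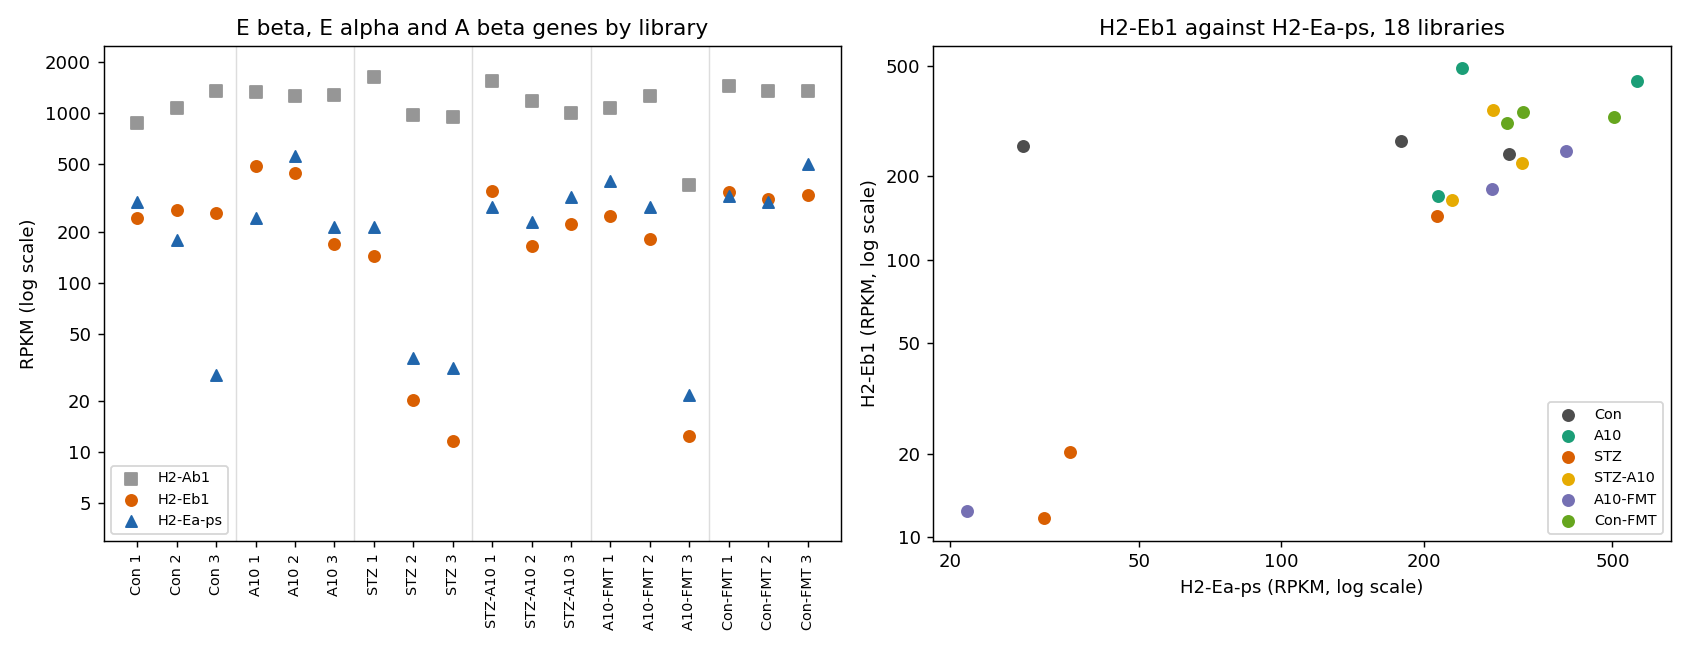
Left, RPKM (log axis) of H2-Ab1, H2-Eb1 and H2-Ea-ps in each of the 18 libraries. Right, H2-Eb1 against H2-Ea-ps in RPKM (log axes), coloured by group; STZ 2, STZ 3 and A10-FMT 3 sit at the lower left with 20.25 RPKM of H2-Eb1 or less, and Con 3 is low in H2-Ea-ps alone.

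The genes of H2-DM, the peptide exchanger, did not pass the threshold in STZ against Con. H2-DMa, the alpha chain, averaged 80.1 ± 12.1 RPKM (SD, n = 3) in Con, 92.3 ± 0.448 in A10, 83.9 ± 34.3 in STZ, 88.6 ± 19.0 in STZ-A10, 59.0 ± 27.1 in A10-FMT and 92.3 ± 3.17 in Con-FMT. H2-DMb1, a beta chain, averaged 152 ± 38.8, 162 ± 14.9, 122 ± 48.5, 139 ± 30.3, 99.8 ± 52.3 and 162 ± 3.04 RPKM in the same order of groups. H2-DMb2, the other beta chain, averaged 236 ± 78.9, 226 ± 34.9, 213 ± 78.9, 220 ± 50.5, 156 ± 70.6 and 238 ± 5.75 RPKM. The log2 fold changes in STZ against Con were 0.00 for H2-DMa (SE 0.312), -0.35 for H2-DMb1 (SE 0.357) and -0.15 for H2-DMb2 (SE 0.330), with adjusted p of 0.999, 0.806 and 0.930. H2-DMb1 and H2-DMb2 are near-copies. Of the 50-base windows of their GENCODE transcripts, 27.2% of H2-DMb1 occur in H2-DMb2, and 30.9% of H2-DMb2 occur in other genes, mostly H2-DMb1, so the split of reads between them is uncertain.

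H2-Oa and H2-Ob, the chains of the H2-DM inhibitor H2-DO, did not hold a fixed ratio. H2-Oa, the alpha chain, averaged 76.5 ± 16.7 RPKM (SD, n = 3) in Con, 87.7 ± 11.8 in A10, 89.2 ± 39.0 in STZ, 83.7 ± 12.4 in STZ-A10, 59.8 ± 26.2 in A10-FMT and 83.3 ± 2.51 in Con-FMT. H2-Ob, the beta chain, averaged 129 ± 44.5, 124 ± 2.66, 93.1 ± 25.5, 91.8 ± 11.6, 85.3 ± 40.6 and 119 ± 10.3 RPKM. Between STZ and Con, H2-Oa was 0.16 (SE 0.302, adjusted p = 0.917) and H2-Ob was -0.45 (SE 0.315, adjusted p = 0.685), and neither passed. H2-Oa shares 21.7% of its 50-base windows with the overlapping gene BC051537, so its level is uncertain.

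Cd74, the invariant chain, was the most abundant transcript of the set. It was 2873.18, 3553.51 and 4859.78 RPKM in Con, 4329.35, 3874.69 and 4378.53 in A10, 4962.17, 3118.42 and 3014.97 in STZ, 5104.16, 4180.84 and 3349.06 in STZ-A10, 3283.89, 3923.95 and 1157.66 in A10-FMT, and 4558.16, 4263.92 and 4344.61 in Con-FMT. The STZ and Con libraries overlapped almost fully, and Cd74 differed between them by -0.03 on the log2 scale (SE 0.350, adjusted p = 0.990). Relative to the single B cell gene Cd79a, Cd74 stood at 4.70 to 6.35 times its RPKM in the 18 libraries.

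Ciita, the transactivator, was at 28.28, 27.51 and 44.41 RPKM in Con, 39.85, 35.75 and 36.86 in A10, 41.54, 22.85 and 26.31 in STZ, 35.49, 40.73 and 28.15 in STZ-A10, 25.04, 29.91 and 12.27 in A10-FMT, and 33.28, 34.29 and 37.76 in Con-FMT. Its levels overlapped between STZ and Con (-0.15 on the log2 scale, SE 0.276, adjusted p = 0.912). Relative to the B cell reference, the fitted Ciita differences in the 6 pairs of groups were 0.05 or less on the log2 scale, each with an SE of 0.224.

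The comparison of STZ with Con asks how the diabetic spleen differed from the control spleen, and the transplant comparisons ask whether either microbiota moved it. In STZ against Con, 0 of the 10 genes passed an adjusted p of 0.05, where 0.163% of all 12905 genes did, and 1, H2-Eb1, passed an unadjusted 0.05, where 11.1% of all genes did. H2-Eb1 was also the only member with every STZ library below every Con library, a pattern seen in 7.07% of all genes. The median log2 fold change of the 10 was -0.09, against -0.01 for the whole table. In A10-FMT against STZ, 0 passed the adjusted threshold (0.00775% of all genes) and 0 the unadjusted (17.2%), with a median of -0.52 against -0.15. In Con-FMT against STZ the counts were 0 (0.00775%) and 1, H2-Eb1 (5.24%), with a median of 0.26 against 0.00. In A10 against Con they were 0 (0.00775%) and 0 (5.25%), with medians of 0.19 and 0.05. In STZ-A10 against STZ they were 0 (0.00775%) and 1, H2-Eb1 (2.93%), with medians of 0.11 and 0.03. The interaction of STZ and AOS gave 0 (0%) and 0 (2.86%). Any difference among the 6 groups gave 0 (0.449%) and 1, H2-Eb1 (22.6%, adjusted p = 0.158). H2-Eb1 was thus the member behind each unadjusted call in these comparisons.

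The transplant groups differed in level without passing the threshold. In A10-FMT against Con-FMT, all 10 fitted log2 fold changes were below 0, with a median of -0.75 against -0.17 over all genes. Every A10-FMT library was below every Con-FMT library for 8 of the 10 (all but H2-Oa and H2-Ob), a pattern that 23.9% of all genes showed. For 7 the unadjusted p was under 0.05, where 23.6% of all genes were, and 0 passed the adjusted threshold (0% of all genes). Cd74 was -0.83 (SE 0.350, adjusted p = 0.204), H2-DMb1 -0.87 (SE 0.357, adjusted p = 0.204) and Ciita -0.71 (SE 0.276, adjusted p = 0.204). These values rest largely on A10-FMT replicate 3. Without it, H2-Ab1 went from -0.79 to -0.25 and Cd74 from -0.83 to -0.29. Without A10-FMT replicate 2, they were -1.12 and -1.17, and 7 members passed the adjusted threshold. The share of all genes that passed in that refit is not reported here, so the 7 is a description only. The mean of the B cell genes was 5.23, 6.70 and 6.94 in the A10-FMT libraries and between 6.97 and 7.04 in Con-FMT. After subtraction of that mean, the median of the 10 genes was -0.03 in this comparison, against 0.55 over all genes, and 0 were past the adjusted threshold (0%) and 0 past the unadjusted (15.5%).

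**Figure D4:**
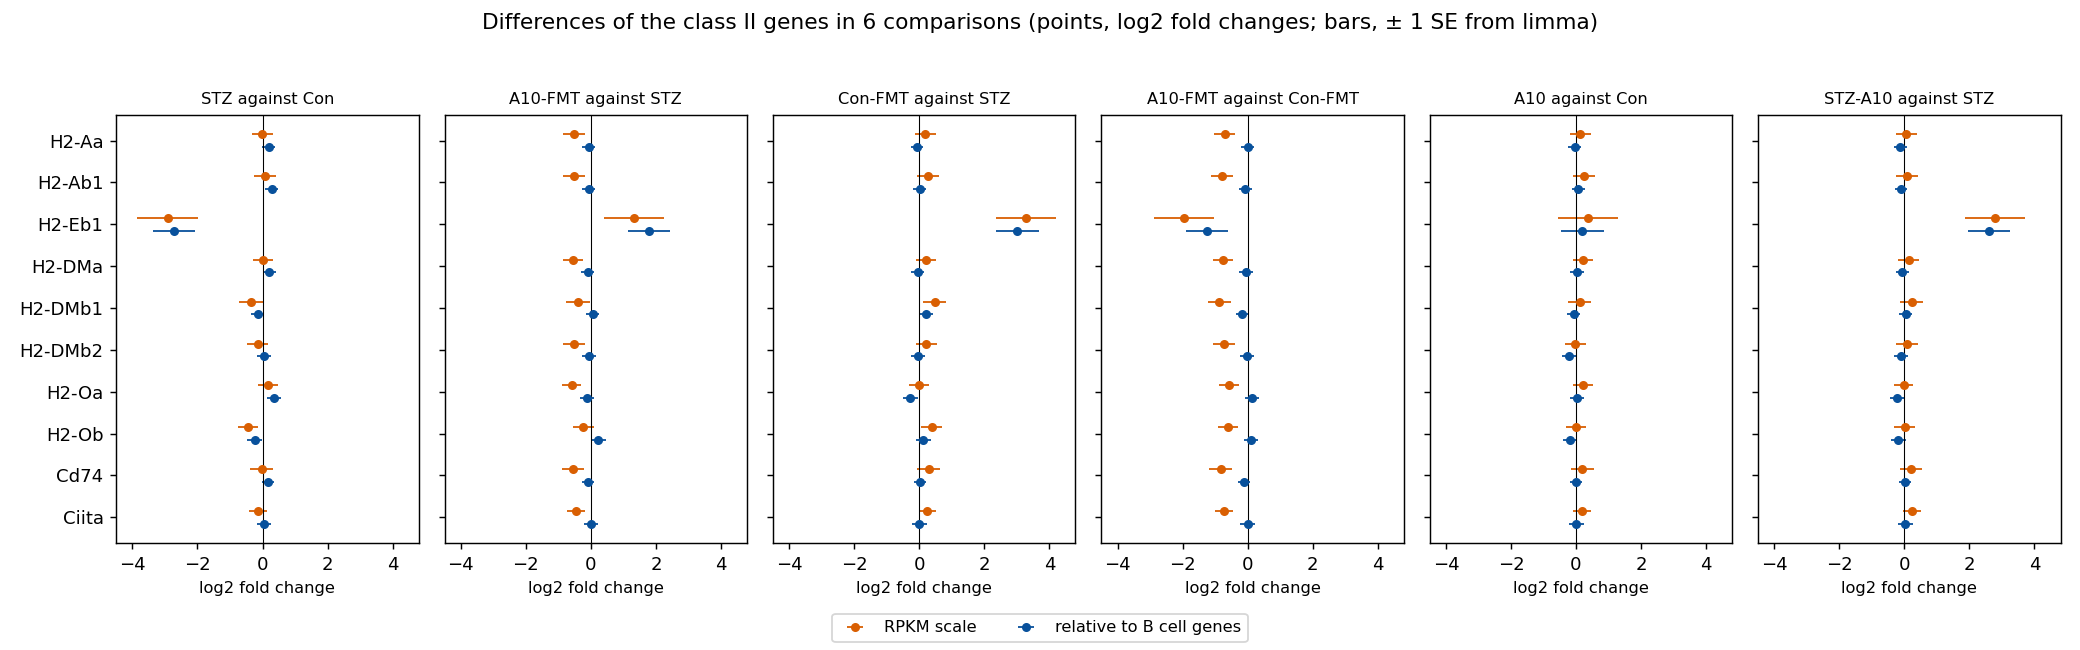
Log2 fold changes of the 10 genes in 6 comparisons, on the log2(RPKM + 1) scale (orange) and after subtracting the mean of 12 B cell genes (blue), with bars of 1 SE from limma. The shift of all 10 genes in A10-FMT against Con-FMT (median -0.75) shrinks to a median of -0.03 on the relative scale, while the H2-Eb1 differences in STZ remain at -2.72 against -2.92.

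Relative to the B cell genes, H2-Eb1 again differed most in STZ, and several of the other chains were slightly higher. In STZ against Con the relative H2-Eb1 difference was -2.72 (SE 0.651, adjusted p = 0.339). The counts past the adjusted threshold were 0 in STZ against Con (0.00775% of all genes), 0 in A10-FMT against STZ (0.00775%), 0 in Con-FMT against STZ (0.00775%), 0 in A10 against Con (0.0155%), 0 in STZ-A10 against STZ (0.00775%) and 0 for any difference (0.0155%). Past the unadjusted threshold, the counts were 1 (2.87%), 1 (2.31%), 1 (1.53%), 0 (1.08%), 1 (0.248%) and 1 (3.77%) in that order, and the gene was H2-Eb1 each time. The moderated test draws a gene's variance toward that of the others. Tested with its ordinary variance in STZ against Con, H2-Ab1 had an unadjusted p of 6.6e-05 and Cd74 of 0.0012. H2-Eb1, H2-Oa, H2-Aa, H2-DMb1 and H2-DMa were also under 0.05, and H2-DMb2, H2-Ob and Ciita were not. This test was chosen after the values had been seen. The share of all genes was not computed there, and 0 genes passed the adjusted threshold, so these p-values are a description only. Every STZ library was above every Con library for 4 members, H2-Aa, H2-Ab1, H2-Oa and Cd74 (3.74% of all genes), and below for 2, H2-Eb1 and H2-DMb1 (1.04%). With Cd79a alone as reference, the STZ and Con libraries overlapped for H2-Aa, H2-Ab1, H2-Oa and Cd74. H2-Eb1 and H2-DMb1 were still lower in every STZ library. The median difference of the 10 was 0.11 on this scale, below the 0.19 of all genes. On the RPKM scale the B cell genes had a median log2 fold change of -0.24 in STZ against Con, and subtracting their mean moves every gene by the same amount.

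For H2-Ab1, the levels relative to the B cell reference were 3.19, 3.10 and 3.12 log2 units in Con and 3.23, 3.27 and 3.10 in A10. They were 3.39, 3.49 and 3.38 in STZ, 3.39, 3.25 and 3.32 in STZ-A10, 3.37, 3.36 and 3.34 in A10-FMT and 3.45, 3.39 and 3.44 in Con-FMT. Almost every library of the 4 STZ-injected groups was thus above the libraries of Con and A10, and only STZ-A10 replicate 2 and A10 replicate 2 crossed. This grouping was chosen after the values had been seen, so its differences and counts are a description. Between the 12 STZ-injected and the 6 other libraries the mean differed by 0.21 for H2-Ab1, 0.16 for Cd74, 0.15 for H2-Aa, 0.19 for H2-Oa, 0.14 for H2-DMa, 0.10 for H2-DMb2, 0.05 for Ciita, -0.04 for H2-DMb1, -0.11 for H2-Ob and -0.97 for H2-Eb1. With 3 against 3 libraries, STZ against Con alone could not go below an exact permutation p of 0.1, two-sided, which H2-Aa, H2-Ab1, H2-Oa, Cd74, H2-DMb1 and H2-Eb1 reached. With Cd79a alone as reference, the same exact p was 0.4 for H2-Aa, 0.2 for H2-Ab1 and H2-Oa, and 0.5 for Cd74. It remained 0.1 for H2-DMb1 and H2-Eb1. For the STZ-injected libraries, on the same scale, 0 members passed the limma test at the adjusted threshold (0.0852% of all genes) and 1, H2-Eb1, at the unadjusted (7.37%).

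The size of these shifts depended on the reference. The median shift of all genes against the B cell reference in the same comparison was 0.23, above the 0.21 of H2-Ab1. With Cd79a alone as reference, H2-Ab1 differed by 0.15, Cd74 by 0.10 and H2-Aa by 0.09. On the RPKM scale without a reference, H2-Ab1 was -0.08 and Cd74 -0.14 in STZ-injected libraries, 0 members passed the adjusted threshold (3.04% of all genes), and 1, H2-Eb1, the unadjusted (21.7%). The mean of the 11 macrophage genes was 5.58, 5.65 and 5.47 in STZ and 5.05, 5.13 and 5.35 in Con, and their part in the shift was not tested.

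**Figure D5:**
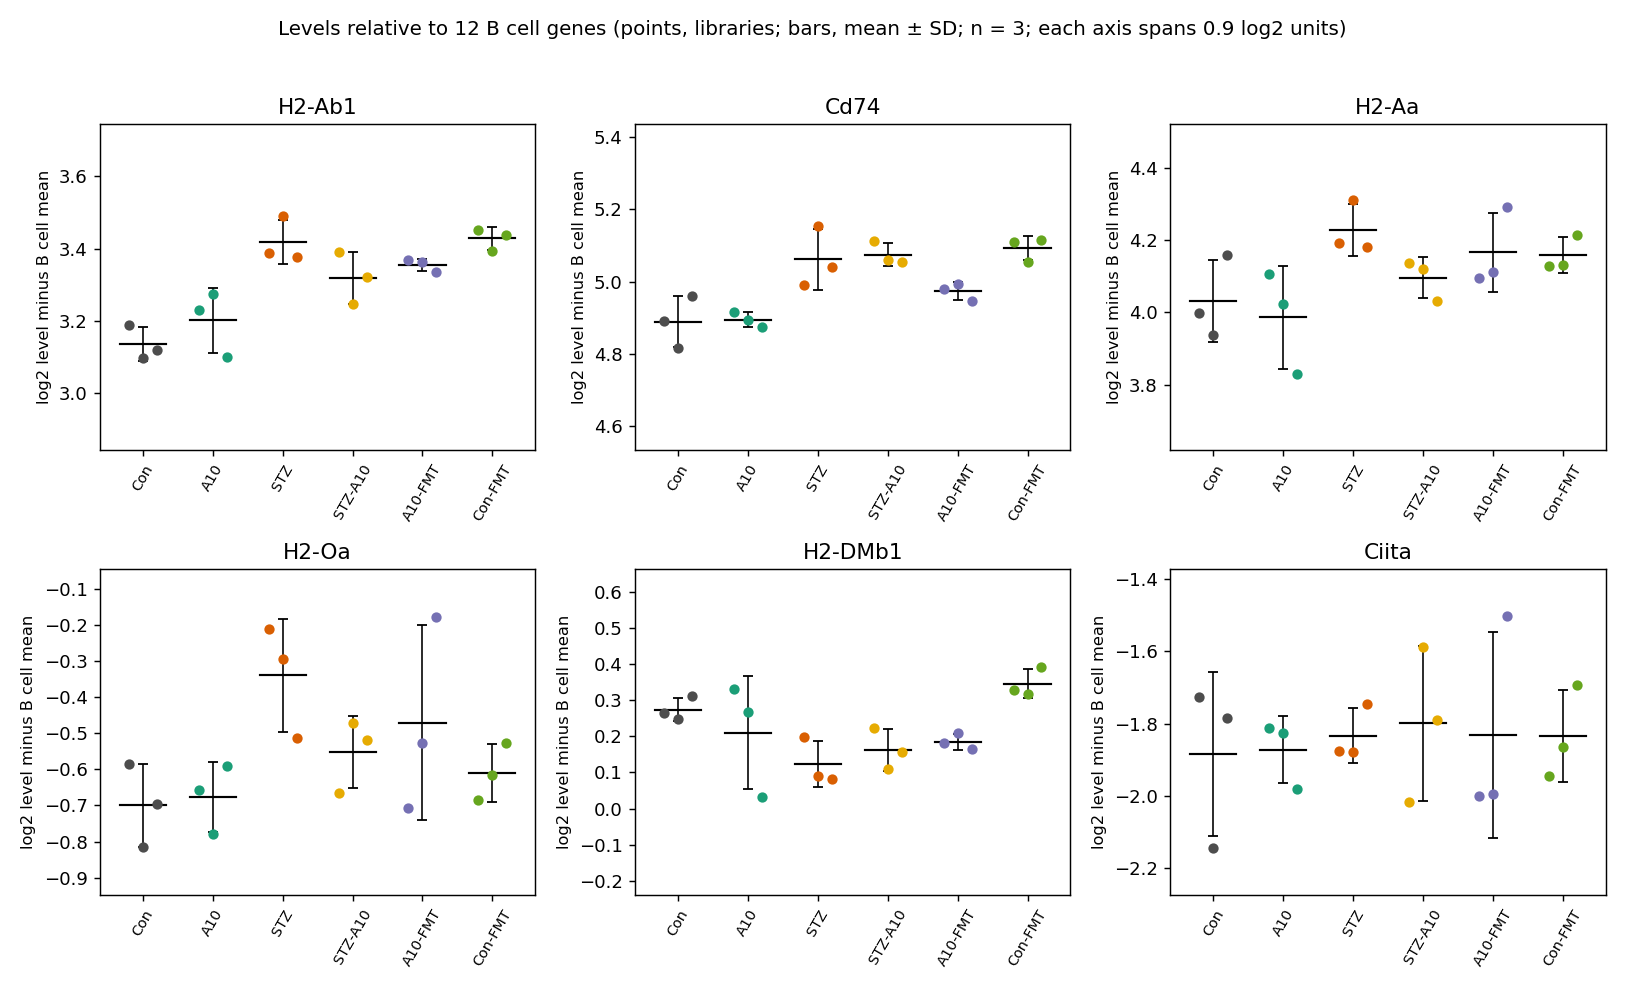
Levels of 6 class II genes in log2 units after subtracting the mean of 12 B cell genes in the same library (points, libraries; bars, mean ± SD, n = 3 per group; each axis spans 0.9). H2-Ab1 and Cd74 lie higher in the 4 STZ-injected groups than in Con and A10, by 0.21 and 0.16, while Ciita differs by 0.05.

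Few genes of the wider pathway passed a threshold in STZ against Con. Among the 7 factors of the class II promoter module (Rfx5, Rfxap, Rfxank, Creb1, Nfya, Nfyb and Nfyc), 0 passed the adjusted threshold in any comparison. In STZ against Con 0 passed the unadjusted one, 5 of 7 fitted values were below 0 (median -0.03, against -0.01 over all genes), and the largest differences were those of Nfya (-0.28, SE 0.132, adjusted p = 0.464) and Creb1 (-0.27, SE 0.134, adjusted p = 0.5003), subunits of NF-Y and of the CREB family. Among 9 endosomal proteases and the reductase that cut and unfold antigen and invariant chain, 0 passed the adjusted threshold, and in STZ against Con 1 passed the unadjusted one, which is near the 11.1% of all genes (5 of 9 below 0, median -0.02). Lgmn, an asparagine-specific protease, was 49.26, 54.5 and 62.28 RPKM in Con and 82.84, 81.24 and 67.45 in STZ (log2 fold change 0.47, SE 0.150, adjusted p = 0.189). It was 50.02, 56.71 and 46.99 in A10-FMT (-0.58 against STZ, SE 0.150, adjusted p = 0.151). Ctsh, an aminopeptidase, was -0.29 in STZ against Con (SE 0.230, adjusted p = 0.739). Of the 2 measured genes on class II turnover, Cd83 was -0.17 (SE 0.395) and Il10 was 0.24 (SE 0.225), with adjusted p of 0.937 and 0.786.

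The interferon gamma route induces Ciita outside B cells. Ifng, interferon gamma itself, was 0.68, 1.15 and 1.88 RPKM in Con, 1.25, 1.68 and 1.89 in A10, 0.26, 0.56 and 0.68 in STZ, 0.9, 0.32 and 0.57 in STZ-A10, 0.74, 0.89 and 0.29 in A10-FMT and 0.75, 0.9 and 0.78 in Con-FMT. In STZ against Con it differed by -0.55 on the log2(RPKM + 1) scale (SE 0.203) and did not pass (adjusted p = 0.283). In the grouping of STZ-injected libraries that was chosen after the values were seen, the adjusted p was 0.0304 (-0.55, SE 0.125), where 3.04% of all genes passed, so this is given as a description only. Such low levels are close to the pseudocount of 1. Of the other 6 genes of the route, among them the receptor chains Ifngr1 and Ifngr2, 0 passed the adjusted threshold in any comparison. Ifngr1, a receptor chain, was 0.36 in STZ against Con (SE 0.172, adjusted p = 0.458) and -0.77 in A10-FMT against STZ (SE 0.172, adjusted p = 0.118). Among 6 other genes of the class II region (Tap1, Tap2, Psmb8, Psmb9, Tapbp and Brd2), which serve class I loading except for Brd2, 0 passed the adjusted and, in STZ against Con, 0 the unadjusted threshold (median 0.04), with Tapbp at -0.23 (SE 0.225, adjusted p = 0.798) and Tap1 at 0.19 (SE 0.254, adjusted p = 0.866) in STZ against Con. In A10-FMT against Con-FMT, 5 of these 6, 4 of the 9 processing genes, 4 of the 7 interferon route genes, 0 of the 7 promoter factors and 4 of the 12 B cell genes passed the unadjusted threshold, where 23.6% of all genes did. The medians were -0.75, -0.28, -0.38, -0.14 and -0.72, against -0.17 over all genes, and A10-FMT replicate 3 enters all of them.

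The genes with the pattern most like the mean of the 10 members over the 18 libraries were the B cell receptor gene Cd79b (r = 0.989), Rubcnl (0.981), Ptprcap (0.979), Chst3 (0.978) and Bin1 (0.978), among genes with a mean of at least 5 RPKM. Cd74 and H2-Ab1 were nearest to each other (r = 0.990). H2-Aa was nearest to Cd74 (0.985) and Cd37 (0.983), H2-DMa to Cd37 (0.986) and Gng2 (0.985), H2-DMb1 to Bin1 (0.987) and Arhgef1 (0.986), H2-DMb2 to H2-Aa (0.978) and Slc44a2 (0.970), H2-Oa to Dcp1b (0.973) and Zmiz2 (0.969), H2-Ob to Gpr174 (0.969) and B3gnt5 (0.966), and Ciita to Nxpe3 (0.966) and Arhgap17 (0.965). For H2-Ab1 the second was H2-Aa (0.981), and for Cd74 it was Siglecg (0.989). H2-Eb1 had no such close partner, with Arpc5l at 0.878 and B3gnt8 at 0.866. Between pairs of the 9 other members r was 0.794 to 0.990, and between H2-Eb1 and each of them 0.555 to 0.803.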

How the data were processed

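The authors isolated spleen RNA, enriched poly(A) RNA and sequenced it on an Illumina HiSeq instrument. Per the study's methods, reads were mapped to reference genes with SOAPaligner and the deposited values are RPKM, computed by the authors. The submitters' processing notes name mm10 and Bowtie 0.12.2, with no role given. The annotation is not given in the sources used here, and no read counts were used, so library depth is not known and counting error was not estimated. Of 19326 lines, 6 with 3 repeated names were left out, and 26 names had been turned into dates. All table columns of values were matched to a sample (0 left over).

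Values were transformed to log2(RPKM + 1) and fitted by limma's moderated test with a mean-variance trend (limma version 3.58.1, R version 4.3.3). The added 1 understates changes of low genes. The fit covered 12905 genes with at least 1 RPKM in 3 libraries. All 18 libraries entered a single model with 1 mean per group. P-values are two-sided and adjusted over all tested genes (Benjamini-Hochberg, threshold 0.05). The relative scale subtracts the mean log2 value of 12 B cell genes in the same library. Correlations used 100000 permutations, and single values an exact permutation test over 3 against 3 libraries. The step was tested on simulated data. Python 3.11.15, pandas 2.3.3 and scipy 1.17.1 were used.

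Some genes of the lists are not reported here by name. The members and lists were chosen with earlier results of these data known. Named genes are all members, pathway genes past the threshold, the 2 with the largest change of each pathway list in STZ against Con, the 5 nearest to the members' mean and the 2 nearest to each member (mean of at least 5 RPKM). H2-Ea, H2-Pa, H2-Pb and the March genes were not analysed here. Alternatives were other scalings, filters, pseudocounts, references, weights, samples and thresholds, and leaving out each library.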

Additional observations from a re-analysis of the deposited data

How the results depend on the processing

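The count of members past the threshold was 0 in every comparison as reported. Of 480 values under alternatives (the 50 relations included), 461 were unmoved. For members this means a count that remained 0, and for the relations a count within 1.5 times. With 3 libraries per group a count can remain 0 for lack of power, so the tally is a description. Library weights (limma's gene-by-gene estimate, used because the usual estimate did not converge) gave A10-FMT replicate 3 a weight of 0.112 and A10-FMT replicate 1 a weight of 7.37. Of the 12905 genes tested, they called 3716 in STZ against Con and 9970 for any difference. On the RPKM scale the members past the threshold under these weights were 3 in STZ against Con, 1 in A10-FMT against STZ, 5 in Con-FMT against STZ, 9 in A10-FMT against Con-FMT, 1 in A10 against Con, 1 in STZ-A10 against STZ and 10 for any difference. Relative to B cell genes they were 6, 1, 2, 0, 2, 1 and 7 in that order, and 7 for the STZ-injected groups. Calls over all genes are not reported here for the other counts under these weights. With so many genes called, these counts are a description and no result about the members. With only the groups compared in the fit, 1 (H2-Eb1) passed on the relative scale in STZ against Con and 1 (H2-Eb1) in Con-FMT against STZ. Leaving out 1 library each gave 0 to 1 members in STZ against Con (H2-Eb1, without A10-FMT replicate 3), 0 to 7 in A10-FMT against Con-FMT (7 without A10-FMT replicate 2), and relative to B cell genes 0 to 1 in Con-FMT against STZ (H2-Eb1, without STZ replicate 1). For the fits of only the groups compared and those leaving out 1 library, the share of all genes is not reported here. Their counts are thus a description and no result about the members. The number of relations past the threshold, 33 of 50, was 24 to 34 under the alternatives. The cause of these changes was not tested.

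The libraries of different groups share replicate numbers. Same-numbered libraries deviated with correlations of -0.385 to 0.571. The highest, 0.571 and 0.429, were those of replicates 1 and 3 in STZ-A10 against STZ. Libraries of different number were not compared, so whether the number marks a shared batch was not tested. With the replicate block, 0 members passed in every comparison. Alternatives chosen after the data were seen, the ordinary variance of each gene and leaving out the 3 libraries lowest in H2-Eb1, also gave 0. No alternative turned the direction of a called value. With 3 libraries per group and unknown depth, differences under about the spread within groups could not be detected. On both scales, some differences above a gene's own spread did not pass the moderated test either. On the RPKM scale, H2-Eb1 differed by -2.92 in STZ against Con, with an SD within groups of 1.28. Relative to B cell genes, H2-Ab1 differed by 0.28 in STZ against Con, with an SD within groups of 0.0584, and did not pass. A missed threshold does not show equal levels.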
